A study of Mus musculus with 8 samples.

Results

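Adipokines are secreted proteins by which fat acts on other tissues and on its own cells. The 8 adipokine genes described here were Adipoq, Lep, Retn, Retnla, Nampt, Apln, Metrnl and Sfrp5, taken by name with earlier results of these data known, and they are 8 of the 32285 gene identifiers counted. Their unique molecular identifiers (UMIs, each standing for 1 captured transcript) were summed per library in adipocyte-rich droplets, 3 subsets of adipocyte progenitors, macrophages and endothelial cells. The question was in which cells of the fat depot each gene was counted, how high transcripts of adipocyte and macrophage genes stood in droplets of other lineages, and whether any level differed between mice fed freely and mice fed in 2 windows a night.

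The libraries came from the stromal vascular fraction, the non-adipocyte cells left after collagenase digestion and centrifugation, of the fourth inguinal white fat depot (sWAT) of C57BL/6 mice (C57BL/6J in the study's text). In the Ad-Lib group (libraries Ad-Lib 1, 3, 5 and 7) food was always present, and in the TAN group (libraries TAN 2, 4, 6 and 8) food was offered only in 2 windows of the night, on the same regular chow. The labels give an age of 8 weeks for every mouse, whereas the study describes these mice as male and older, after months of the feeding schedule, so the age is uncertain. Each group held 4 libraries, from 4 mice by the study's methods. Mature adipocytes float and were removed with the supernatant. The 8 libraries held 25320800 to 37140950 UMIs each, 36370 of 44427 droplets were kept (3717 to 5654 a library), and 174 of 36193 barcode sequences occurred in more than 1 library.

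Adiponectin (Adipoq), leptin (Lep) and resistin (Retn) are hormones made by mouse adipocytes: adiponectin acts through Adipor1, Adipor2 and the binding protein T-cadherin (Cdh13), and leptin through Lepr in the brain. Retnla encodes the resistin-like molecule RELMα, which marks macrophages that have responded to the type 2 cytokines IL-4 and IL-13 through the transcription factor STAT6. Nampt encodes the rate-limiting enzyme of NAD salvage, which is also found outside cells under the name visfatin. Apelin (Apln) is the ligand of the receptor Aplnr and a gene of angiogenic tip-type endothelial cells. Meteorin-like (Metrnl) is a secreted factor made by fat, muscle and barrier tissues, and Sfrp5 is a secreted Wnt antagonist.

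In GRCm38, by GENCODE M21, Adipoq (ENSMUSG00000022878) lies on chromosome 16 from 23146536 to 23158028 and Retnla (ENSMUSG00000061100) on the same chromosome from 48842551 to 48844461. Lep (ENSMUSG00000059201) lies on chromosome 6 from 29060220 to 29073877, and Retn (ENSMUSG00000012705) on chromosome 8 from 3655770 to 3660110. Nampt (ENSMUSG00000020572) lies on chromosome 12 from 32819545 to 32853349, and Metrnl (ENSMUSG00000039208) on chromosome 11 from 121701544 to 121716306. Apln (ENSMUSG00000037010) lies on chromosome X from 48025146 to 48034853 and Sfrp5 (ENSMUSG00000018822) on chromosome 19 from 42197971 to 42202252, these 2 on the minus strand and the other 6 genes on the plus strand. UMIs were counted over the exons of each gene by a method that reads the 3' end of transcripts.

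The promoters of the 3 adipocyte hormones and of the macrophage gene Retnla are shown because these 4 genes carried the contrast between lineages described here. Each line gives the 250 bases before the RefSeq transcription start (GRCm38.p6, plus strand), at chr16:23146286-23146535 for Adipoq, chr6:29059971-29060220 for Lep, chr8:3655520-3655769 for Retn and chr16:48842359-48842608 for Retnla. Capitals mark matches on either strand to a C/EBP motif (TTGCNNAA), a STAT6 motif (TTC and GAA with 4 bases of any kind between them) or a TATA box (TATAAA).
Adipoq: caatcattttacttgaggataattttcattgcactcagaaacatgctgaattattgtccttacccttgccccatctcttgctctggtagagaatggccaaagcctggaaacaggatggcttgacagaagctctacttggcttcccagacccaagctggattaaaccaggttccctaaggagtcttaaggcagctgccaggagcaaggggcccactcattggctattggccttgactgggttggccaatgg
Lep: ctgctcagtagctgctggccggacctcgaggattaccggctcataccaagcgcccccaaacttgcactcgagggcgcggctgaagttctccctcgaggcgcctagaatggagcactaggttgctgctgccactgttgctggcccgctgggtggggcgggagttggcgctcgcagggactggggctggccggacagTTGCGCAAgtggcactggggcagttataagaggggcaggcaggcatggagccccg
Retn: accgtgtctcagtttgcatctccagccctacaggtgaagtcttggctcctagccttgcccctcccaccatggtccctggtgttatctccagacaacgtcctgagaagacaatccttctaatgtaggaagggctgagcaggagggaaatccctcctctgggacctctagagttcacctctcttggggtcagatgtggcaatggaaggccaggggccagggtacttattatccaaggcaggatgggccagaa
Retnla: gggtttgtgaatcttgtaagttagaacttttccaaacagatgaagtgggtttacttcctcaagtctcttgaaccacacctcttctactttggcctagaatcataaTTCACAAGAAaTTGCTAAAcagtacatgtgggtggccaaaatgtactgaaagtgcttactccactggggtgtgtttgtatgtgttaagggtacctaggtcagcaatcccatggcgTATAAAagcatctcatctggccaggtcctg
The Lep window held a C/EBP match 55 to 48 bases before the start. The Retnla window held a STAT6 match 145 to 136 bases before the start, a C/EBP match 134 to 127 bases before it and a TATA box 30 to 25 bases before it, while the windows of Adipoq and Retn held none of the 3. Of 32851 promoter windows of this length, 9.56% held the C/EBP letters, 5.85% the STAT6 letters and 12.4% the TATA box, so these matches describe the sequence and do not show a site in use.

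Droplets were assigned by counting how many genes of a marker list had a UMI, and none of the 8 adipokine genes was on a list. An adipocyte-rich droplet had at least 4 of 10 adipocyte markers (Plin1, Cidec, Lipe and others), at most 2 endothelial markers and too few markers for any other lineage. This gave 955 adipocyte-rich droplets (56 to 175 a library), 3206 Dpp4+, 2986 Icam1+ and 1672 F3+ progenitors, 3828 macrophages and 6999 endothelial cells. Of the F3+ progenitors 41.9% lay in the Leiden cluster given that name, as did 91.5% of Dpp4+ and 81.6% of Icam1+ progenitors in theirs. Adipocyte-rich droplets were shallow, with a median of 1025 UMIs in Ad-Lib and 1141 in TAN libraries, against 10350.0 and 9504.5 for all progenitors, so they are called by their rule and not as adipocytes. Just inside the rule, 245 of them had exactly 4 markers, and just outside it 259 unassigned droplets had 3. The 10 markers together reached 26833 ± 265 counts per 1e6 UMIs (CPM, SD, n = 4) in the adipocyte-rich droplets of Ad-Lib libraries and 25417 ± 3366 in those of TAN libraries, and all 10 were detected there.

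**Figure D1:**
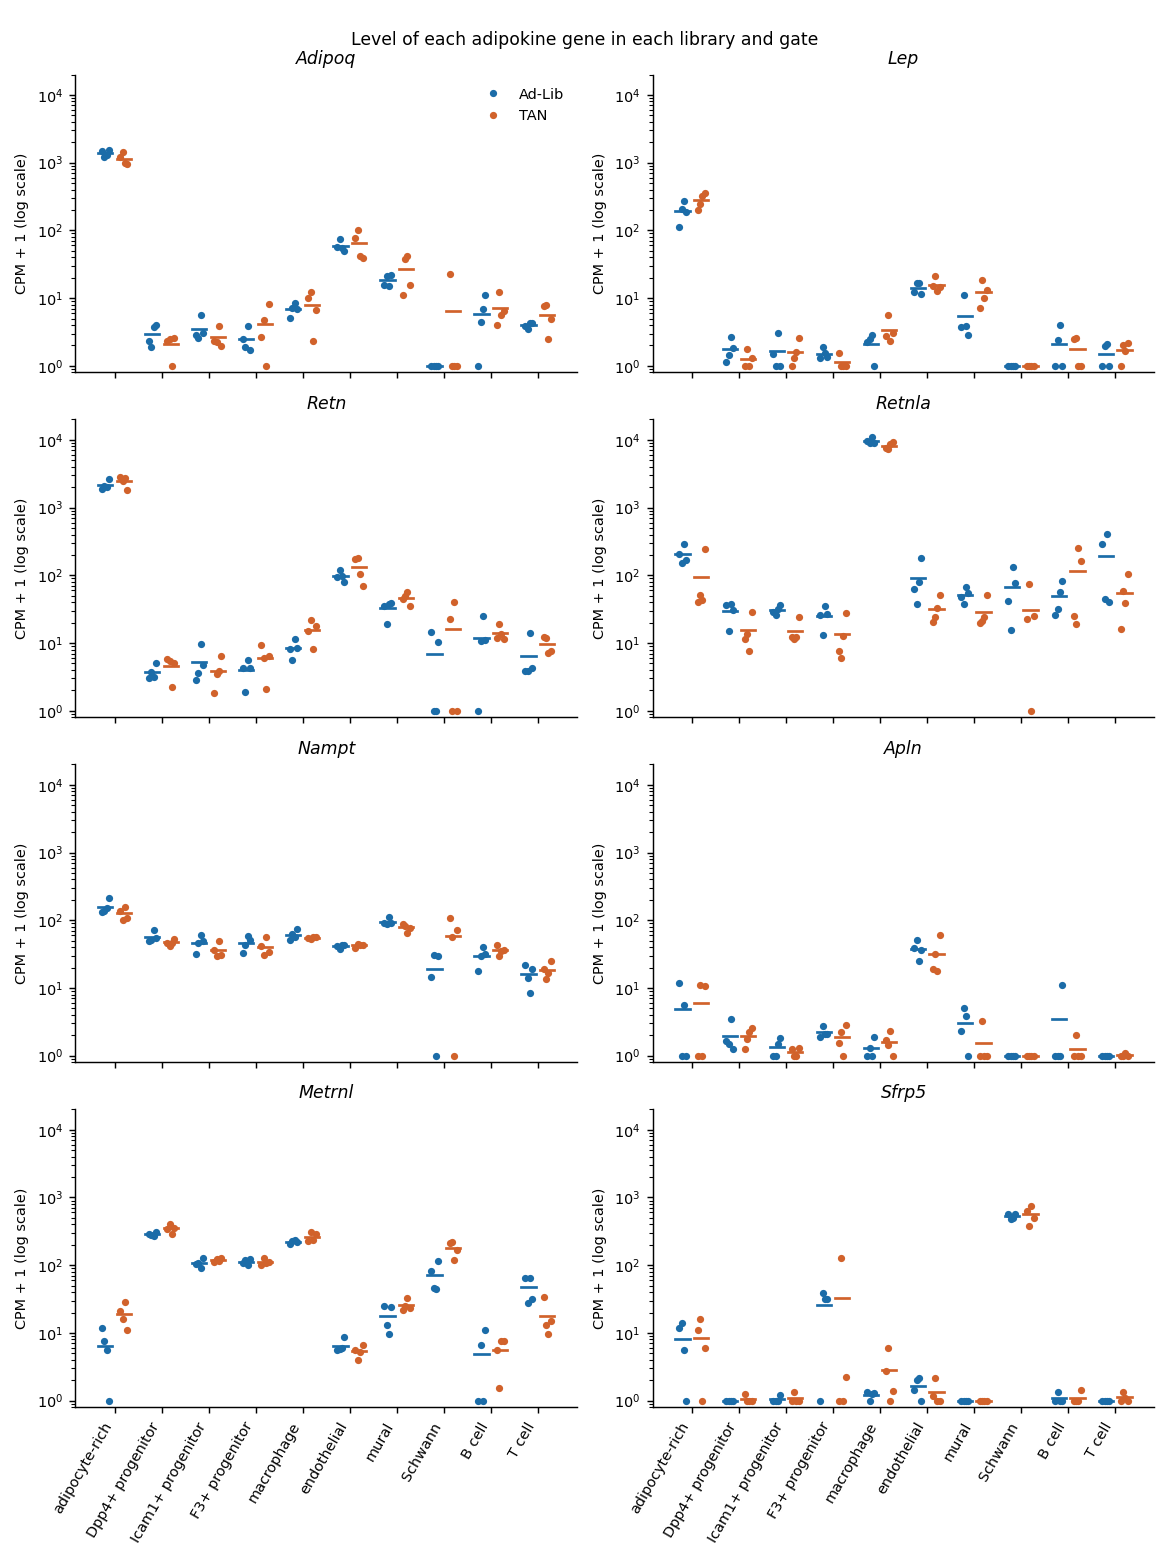
Level of each adipokine gene (CPM + 1, logarithmic axis) in 10 groups of droplets, with 1 point per library and a line at the mean of each feeding group of 4 libraries. Adipoq, Lep and Retn were highest in adipocyte-rich droplets and next in endothelial cells, Retnla in macrophages, Apln in endothelial cells, Metrnl in Dpp4+ progenitors and macrophages, and Sfrp5 in Schwann-marker droplets.

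The 8 genes fell into distinct patterns by lineage. Over the 8 libraries the Adipoq level was 1271 ± 220 CPM (SD, n = 8) in adipocyte-rich droplets, 61.0 ± 21.3 in endothelial cells, 21.8 ± 11.4 in mural cells and 6.36 ± 3.02 in macrophages, and no more than 2.33 in any progenitor subset. Lep reached 235.8 ± 78.7 CPM in adipocyte-rich droplets, 14.1 ± 3.1 in endothelial cells and 1.79 ± 1.30 in macrophages. Retn reached 2305 ± 405 CPM in adipocyte-rich droplets, 113.9 ± 42.0 in endothelial cells and 11.0 ± 5.5 in macrophages. For all 3 hormones the adipocyte-rich level stood above the endothelial level, and that above the mural level, in 8 of 8 libraries. Below these, macrophages stood above T cells for Adipoq, by 0.56 on the log2(CPM + 1) scale in 7 of 8 libraries (exact sign-flip permutation test, adjusted p = 0.0278), and were not separated from B cells, which they exceeded in 6 of 8 (adjusted p = 0.490, same exact test).

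Retnla and Apln each had 1 home. Retnla reached 8898 ± 1120 CPM in macrophages and 148.8 ± 96.8 in adipocyte-rich droplets, the next by mean of the groups assigned to 1 lineage. Droplets that met the rules of several lineages had 1337 ± 661 CPM, and those that met none 683 ± 283. The macrophage gate held 85.0% of its 271672 UMIs (79.6 to 87.8% a library). Apln reached 33.7 ± 14.8 CPM in endothelial cells and 4.41 ± 5.09 in adipocyte-rich droplets, where it rested on 6 UMIs, and 78.3% of its 1381 UMIs were endothelial. The log2 ratio of the endothelial to the adipocyte-rich level of Apln was 3.38 ± 1.62, above 0 in 8 of 8 libraries (exact sign-flip permutation test, two-sided, adjusted p = 0.0117 over 15 pairs of gates).

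Metrnl was counted in progenitors and macrophages. Its level was 316.0 ± 46.5 CPM in Dpp4+ progenitors, 241.4 ± 36.2 in macrophages, 112.1 ± 12.1 in Icam1+ progenitors and 111.1 ± 9.3 in F3+ progenitors, and 61.7% of its 25980 UMIs lay in progenitors and 22.9% in macrophages. Dpp4+ progenitors stood above Icam1+ progenitors by 1.48 ± 0.14 on the log2 scale and above macrophages by 0.39 ± 0.13, each in 8 of 8 libraries (exact sign-flip permutation test, adjusted p = 0.0117). The F3+ and Icam1+ subsets differed by -0.01 ± 0.12 (exact sign-flip permutation test, p = 0.82), so their order was not resolved. With Leiden clusters in place of the marker rules the F3+ level was 137.4 ± 19.8 CPM and the Icam1+ level 108.4 ± 9.6. That difference was not tested.

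Nampt was the broadest of the 8. It reached 141.2 ± 34.3 CPM in adipocyte-rich droplets, 85.5 ± 12.8 in mural cells, 57.0 ± 7.4 in macrophages, 50.8 ± 8.7 in Dpp4+ progenitors, 42.4 ± 10.7 in F3+ progenitors, 41.0 ± 2.3 in endothelial cells and 40.7 ± 11.0 in Icam1+ progenitors. The adipocyte-rich level exceeded the mural level by 0.70 ± 0.36 on the log2 scale, and the macrophage level the endothelial level by 0.46 ± 0.20, each in 8 of 8 libraries (exact sign-flip permutation test, adjusted p = 0.0117). The Dpp4+ and F3+ levels were not separated after adjustment (exact sign-flip permutation test, adjusted p = 0.0586). Progenitors held 40.4% of its 9565 UMIs, macrophages 15.1% and endothelial cells 14.2%.

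Sfrp5 was the rarest, with 995 UMIs in all kept droplets. In the 113 droplets with Schwann cell markers it was counted in every library, at 571, 475, 490.4 and 561 CPM in Ad-Lib 1, 3, 5 and 7 and at 623, 383, 753 and 500.1 CPM in TAN 2, 4, 6 and 8. These droplets numbered 7 to 25 a library and the feeding groups overlapped, with means of 524.2 ± 48.8 and 564.7 ± 159.0 CPM (exact permutation test, two-sided, p = 0.657). In F3+ progenitors it was listed at 0 in Ad-Lib 1, TAN 2 and TAN 6, at 30.1 to 37.9 CPM in the other Ad-Lib libraries, at 1.21 in TAN 8 and at 126.7 in TAN 4. With Leiden clusters in place of the marker rules the F3+ mean over 8 libraries was 0.217 ± 0.341 CPM.

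The Sfrp5 counts outside Schwann-marker droplets came from few droplets. Of all Sfrp5 UMIs, 63.0% lay in 15 droplets with at least 10 UMIs of the gene. Cluster 14, 1 of 33 clusters computed without the 8 genes and left unnamed, held 12 of them in 5 libraries (6 Ad-Lib and 6 TAN), with 12 to 117 UMIs each and 595 in all, while the other 1276 droplets of that cluster held 26. By the F3+ marker rule 5 of the 12 were F3+ progenitors and held 388 of the 390 UMIs of that subset. The genes most raised in these 12 droplets against the rest of the cluster were Itgb4, an integrin subunit, with UMIs in 11 of 12, then Lypd2, Hcn4 and Spp1, and the glucose transporter Slc2a1 had UMIs in 12 of 12. These droplets were looked at after the values were seen and are described without a test.

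To give a level that free RNA can reach, each level was set beside that of B and T cells of the same library, which should lack adipocyte hormones. The 48 comparisons of 8 genes in 6 gates were adjusted together, and the smallest p the sign-flip test over 8 libraries can give is 0.00781, or 0.015 after adjustment. In lymphocytes the mean levels over 8 libraries were 4.23 ± 1.91 CPM for Adipoq, 0.688 ± 0.574 for Lep and 8.53 ± 4.48 for Retn. Adipocyte-rich droplets stood above them by 7.99, 7.13 and 8.06 on the log2(CPM + 1) scale, and endothelial cells by 3.58, 3.21 and 3.67, in 8 of 8 libraries each (adjusted p = 0.015, exact sign-flip permutation test). In the Dpp4+ progenitors the order was the reverse for Adipoq, at -1.06, and Retn, at -1.09, both below lymphocytes in 8 of 8 libraries (adjusted p = 0.015, exact sign-flip permutation test). Dpp4+ progenitors were deeper, with medians of 10090 UMIs in Ad-Lib and 9388.5 in TAN libraries, against 4415 and 4617 in lymphocytes. The part of depth in levels below lymphocytes was not tested. Macrophages exceeded lymphocytes by 0.44 for Adipoq and 0.66 for Lep (adjusted p = 0.048 and 0.029, exact sign-flip permutation test), and by 0.37 for Retn, in 5 of 8 libraries (adjusted p = 0.188). Against the B cell gate alone the calls for Adipoq and Retn in Dpp4+ progenitors and for Adipoq and Lep in macrophages were lost (adjusted p from 0.0714 to 0.490), and against the T cell gate alone Retn in macrophages was called, by 0.62 (adjusted p = 0.0375). The B cell gate held only 17, 76 and 24 droplets in Ad-Lib 1, 5 and 7, and no UMI of these hormones in Ad-Lib 1.

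In macrophages Retnla exceeded the lymphocyte level by 6.82 ± 1.25 in 8 of 8 libraries. In the 3 progenitor subsets it lay below lymphocytes by 1.91 to 2.25 in 8 of 8 libraries (exact sign-flip permutation test, adjusted p = 0.015). Adipocyte-rich droplets, at 0.57 ± 1.06, and endothelial cells, at -0.71 ± 1.34, were not separated from lymphocytes (exact sign-flip permutation test, adjusted p = 0.236 and 0.223). With Leiden clusters in place of the marker rules, adipocyte-rich droplets stood above lymphocytes by 1.66 in 8 of 8 libraries (exact sign-flip permutation test, adjusted p = 0.0156), where the lymphocyte level was 45.5 ± 23.3 CPM. The lymphocyte level of Retnla, 115.5 ± 109.0 CPM, was itself uneven: 11 T cell droplets with over 10 UMIs held 1102 of the 1717 T cell UMIs, and 2 B cell droplets held 793 of 1176. Metrnl stood above lymphocytes by 3.90 in Dpp4+ progenitors, 2.42 in Icam1+ and 2.41 in F3+ progenitors and 3.51 in macrophages, and below them by 1.85 in endothelial cells (exact sign-flip permutation test, adjusted p = 0.015 for each). Against the B cell gate alone the endothelial level of Metrnl was not separated, at 0.65 ± 1.30 and higher in 4 of 8 libraries (exact sign-flip permutation test, adjusted p = 0.332). Nampt was above lymphocytes in all 6 gates, by 0.91 to 2.69, in 8 of 8 libraries each. Against the B cell gate alone 3 of these 6 were not separated, Icam1+ progenitors at 0.34, F3+ progenitors at 0.40 and endothelial cells at 0.39 (exact sign-flip permutation test, adjusted p = 0.115, 0.109 and 0.0592). Lymphocytes can express Nampt and Metrnl themselves.

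A single source of free RNA keeps its genes in 1 ratio in every lineage. The 10 adipocyte markers also chose the adipocyte-rich droplets, so the ratio there depends on the rule. Tests of other gates against that ratio are therefore descriptions. In adipocyte-rich droplets Adipoq gave 4.95% of the UMIs of the 10 adipocyte markers, Lep 0.942% and Retn 8.90%. The marker Car3 alone gave 74.5% of the marker UMIs there, 68.2% in endothelial cells and 58.2% in macrophages. Its share was 52.6% in Dpp4+, 40.4% in F3+ and 29.1% in Icam1+ progenitors, and no ratio was computed without it. In endothelial cells, where the markers together stood at 5.82% of their adipocyte-rich level, the values were 4.08%, 0.915% and 7.72%. The fold to the adipocyte-rich ratio of the same library averaged 0.80 for Adipoq and 0.82 for Retn, below 1 in 8 of 8 libraries (exact sign-flip permutation test, adjusted p = 0.0102), and 1.07 for Lep, which did not differ (exact sign-flip permutation test, adjusted p = 0.661). The lipase genes Lipe and Pnpla2, which many cells use, made up 6.80% and 11.8% of endothelial marker UMIs. With both left out, a choice made after seeing the data, the endothelial ratios were 5.02%, 1.12% and 9.48% against 5.31%, 1.01% and 9.55%, with folds of 0.93, 1.24 and 0.95. Among lymphocytes the full ratios were 3.66%, 0.688% and 7.69%. In macrophages they were 3.26%, 0.852% and 5.31%, lower than in adipocyte-rich droplets in 8 of 8 libraries for Adipoq and Retn, with folds of 0.61 and 0.59 (exact sign-flip permutation test, adjusted p = 0.0102). Lipe and Pnpla2 made up 10.5% and 16.3% of macrophage marker UMIs, and without them the macrophage fold was 0.79 for Adipoq, higher in 3 of 8 libraries and no longer passing the test, and 0.76 for Retn (exact sign-flip permutation test, adjusted p = 0.197 and 0.0328).

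In Icam1+ progenitors the ratio was 1.64% for Adipoq and 2.84% for Retn, 0.33 and 0.28 of the adipocyte-rich ratio and lower in 8 of 8 libraries (exact sign-flip permutation test, adjusted p = 0.0102). The marker Plin4 gave 43.1% of the marker UMIs there and 29.2% in F3+ progenitors, against 4.11% in adipocyte-rich droplets and 5.24% in Dpp4+ progenitors. With Plin4 left out, a choice made after seeing the data, the Icam1+ ratios were 2.89% and 4.99%, 0.56 and 0.48 of the adipocyte-rich ratio and lower in 7 of 8 libraries (exact sign-flip permutation test, adjusted p = 0.0447). The folds were then 0.48 and 0.50 in F3+ and 0.51 and 0.61 in Dpp4+ progenitors. With Lipe and Pnpla2 left out instead, Retn in Dpp4+ progenitors, at a fold of 0.82, and Adipoq in F3+ progenitors, at 0.42, no longer passed the test (exact sign-flip permutation test, adjusted p = 0.146 and 0.0547). The markers in Icam1+ progenitors, at 125.4 ± 22.7 CPM in Ad-Lib and 127.1 ± 6.9 in TAN libraries, were few, and the 3 hormones rested on 62, 18 and 107 UMIs. As a percentage of the adipocyte-rich level of the same library, Adipoq stood at 4.81 ± 1.43% in endothelial cells, 0.50 ± 0.22% in macrophages and 0.12 to 0.20% in the progenitor subsets, Lep at 6.54 ± 2.24% in endothelial cells and Retn at 4.92 ± 1.44%. Endothelial cells, through their number, held 38.4% of Adipoq, 39.9% of Lep and 39.2% of Retn UMIs, above the 29.5%, 26.0% and 28.7% in adipocyte-rich droplets. Within endothelial cells both genes varied by cluster. Retn was higher in cluster 3 (Aqp1, Apln) than in cluster 6 (Car4, Slitrk4) by 0.87 ± 0.28 on the log2 scale and lowest in cluster 0 (Gja5), in 8 of 8 libraries (exact sign-flip permutation test, adjusted p = 0.00965 over 21 pairs of clusters), and Adipoq followed the same order.

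**Figure D2:**
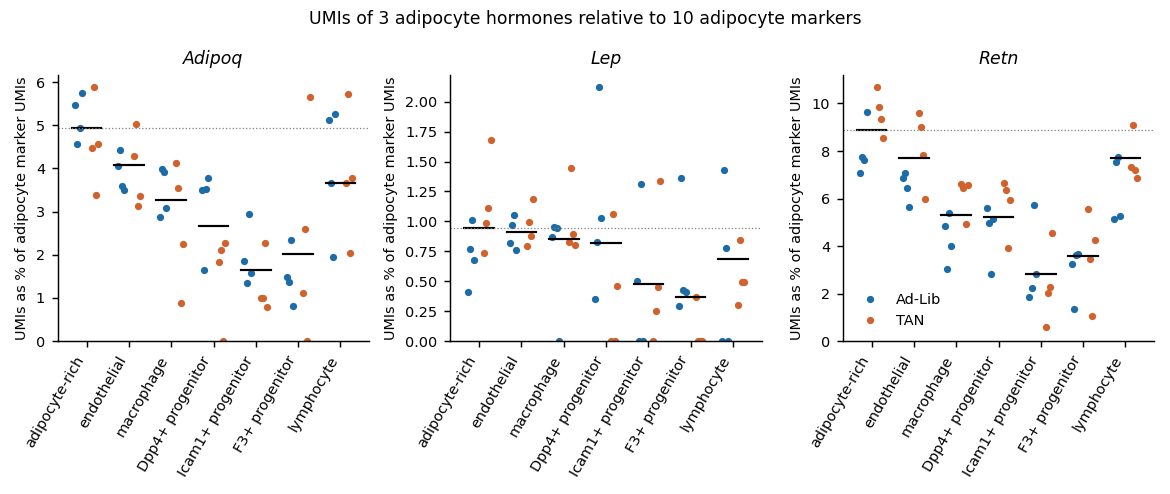
UMIs of Adipoq, Lep and Retn as a percentage of the UMIs of 10 adipocyte markers in 7 groups of droplets, with 1 point per library, a bar at the pooled percentage and a dotted line at the pooled value of adipocyte-rich droplets. For Adipoq and Retn the progenitor subsets and macrophages lie farther below the dotted line than endothelial cells and lymphocytes do.

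The 3 adipocyte hormones were then compared between feeding schedules in adipocyte-rich droplets, their home. The Adipoq level was 1472, 1230.3, 1307 and 1557 CPM in Ad-Lib 1, 3, 5 and 7 and 1203, 1449, 980.2 and 966 CPM in TAN 2, 4, 6 and 8. The 3 lowest were TAN libraries, and TAN 4 alone lay inside the Ad-Lib range. The edgeR quasi-likelihood estimate was a log2 change of -0.30 ± 0.17 (SE), with an adjusted p of 0.348 over the 2212 genes tested.

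Leptin (Lep) stood at 109.9, 208, 267 and 184 CPM in the Ad-Lib libraries and at 197, 243, 322 and 355 CPM in the TAN libraries. The 2 highest were TAN libraries, and the ranges overlapped between 197 and 267 CPM. For Lep this gave a log2 change of 0.44 ± 0.25 (edgeR, adjusted p = 0.348), resting on 311 UMIs. Resistin (Retn) stood at 1901, 2083, 2012 and 2612 CPM in the Ad-Lib libraries and at 2875, 2432, 2717 and 1808.5 CPM in the TAN libraries, where TAN 8 was the lowest of all 8, and its log2 change was 0.16 ± 0.18 (edgeR, adjusted p = 0.691). Nampt in the same droplets had a log2 change of -0.40 ± 0.24 (edgeR, adjusted p = 0.367). In mural cells, which were not among the gates fitted, Nampt was 93.9 ± 10.1 CPM in Ad-Lib and 77.1 ± 9.6 in TAN libraries, with every TAN library lower (exact permutation test, two-sided, p = 0.0286, unadjusted). This value was picked out after all were seen, and no share over all genes was computed for mural cells.

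Of the 5 adipokine genes that passed the filter on low counts in adipocyte-rich droplets none was called, while 97 of all 2212 genes tested were, a share of 4.39%. A gene counted as called where its adjusted p was below 0.05 and its fold was 1.5 or more. At an unadjusted p under 0.05 there was 1 of the 5, Retnla, beside 19.0% of all genes tested, and with no filter on low counts 1 was called. Apln, Metrnl and Sfrp5 did not pass the filter there, with 6, 14 and 10 UMIs. Other adipocyte genes did change in these droplets: the adipocyte markers Adrb3, the β3-adrenergic receptor, Pck1, the enzyme of glyceroneogenesis, and the lipid droplet coat gene Plin4 were lower in TAN by -2.10, -1.09 and -0.78 on the log2 scale, and 7 of the 10 adipocyte markers were not called. Because those 3 genes helped to choose the droplets, their levels are given as a description.

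**Figure D3:**
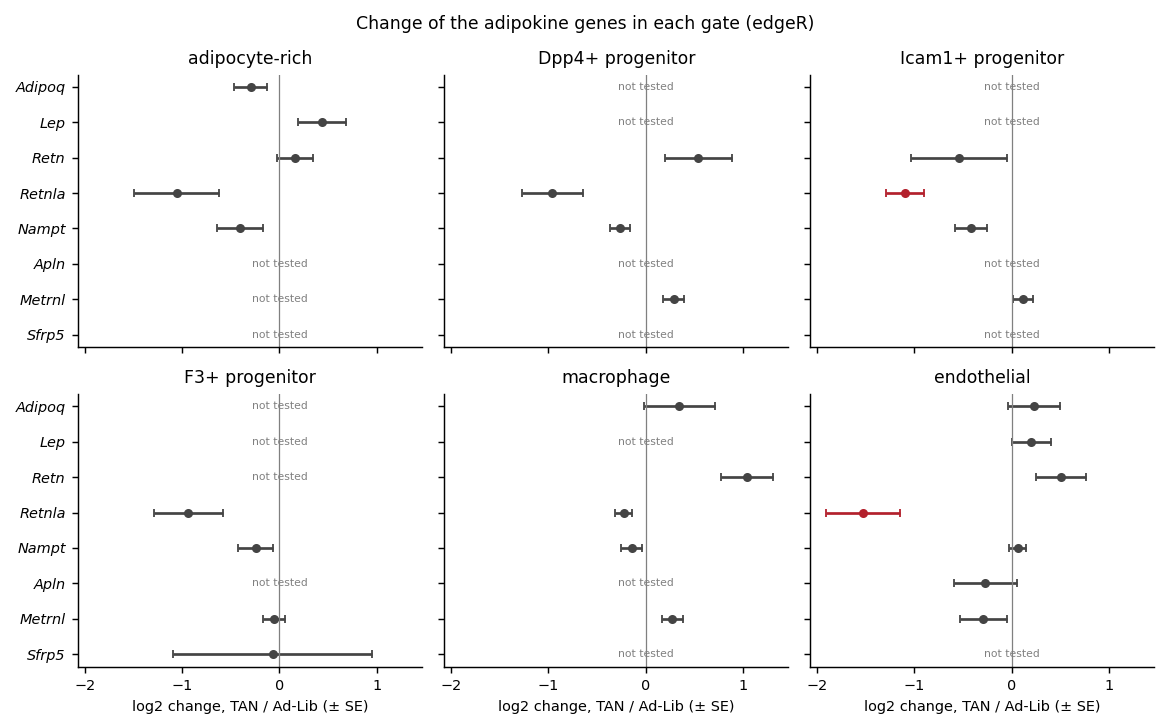
Log2 change of each adipokine gene between TAN and Ad-Lib libraries in the 6 gates, estimated with edgeR, with bars of ± 1 SE and red for the values called. Retnla was the gene called, lower in TAN in Icam1+ progenitors and in endothelial cells, and genes that did not pass the filter on low counts in a gate are marked as not tested.

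Retnla was the member called between the schedules by the edgeR fit, lower in TAN in 2 gates. In Icam1+ progenitors its level was 27.6, 25.3, 30.8 and 35.8 CPM in Ad-Lib 1, 3, 5 and 7 and 11.1, 10.5, 11.1 and 23.6 CPM in TAN 2, 4, 6 and 8, so every TAN library lay below every Ad-Lib library. This separation rested in part on few droplets. In Ad-Lib 3, 1 droplet held 42 of the 97 Retnla UMIs, and without the 4 droplets with over 10 UMIs, all of Ad-Lib 3 and 7, Ad-Lib 3 stood at 14.4 CPM, below TAN 8, and the means were 25.0 ± 7.3 and 14.1 ± 6.4 CPM (exact permutation test, two-sided, p = 0.0571). With these droplets included the log2 change was -1.09 ± 0.19 (edgeR, adjusted p = 0.00557), and 180 of 10679 genes tested, 1.69%, were called in these cells. The change was also called in the 15 alternative edgeR and DESeq2 fits, none of which set these 4 droplets aside by rule. The fits without Ad-Lib 3 or Ad-Lib 7 left out the rich droplets of that library, and whether removing doublets did so was not examined. Of the 4 adipokine genes tested there Retnla was the 1 called, with Metrnl at 0.12 ± 0.10 and Nampt at -0.42 ± 0.17 (edgeR, adjusted p = 0.647 and 0.228). With no filter on low counts Nampt passed the adjusted p (log2 change -0.43, edgeR, adjusted p = 0.0422) but not the limit of 1.5-fold. The level itself was low, at 0.24 ± 0.09% of the macrophage level and below that of lymphocytes. The macrophage markers C1qa, Mrc1 and the other 7 together gave 31.5 ± 9.2 CPM in Ad-Lib and 24.8 ± 5.5 in TAN libraries, with none of the 9 at 0. Their part in the result was not tested.

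In endothelial cells Retnla stood at 62.1, 36.3, 79.1 and 179.5 CPM in the Ad-Lib libraries and at 19.4, 22.9, 31.8 and 49.6 CPM in the TAN libraries. The groups overlapped because Ad-Lib 3 lay below TAN 8. The log2 change was -1.53 ± 0.38 (edgeR, adjusted p = 0.0407), 1 called of the 7 members tested, against 222 of 10872 genes, 2.04%. The value of Ad-Lib 7 rested on 1 droplet with 401 of the 1867 endothelial Retnla UMIs, and without the 2 droplets with over 10 UMIs the means were 59.1 ± 19.0 and 30.9 ± 13.5 CPM (exact permutation test, two-sided, p = 0.0571). With the likeliest doublets removed the log2 change was -0.97 and still called. The endothelial call was lost with DESeq2 (adjusted p = 0.0806) and when Ad-Lib 7 (log2 change -0.99), TAN 2 (-1.35), TAN 4 (-1.43) or TAN 6 (-1.54) was left out. Macrophage markers in endothelial cells summed to 96.6 ± 12.3 CPM in Ad-Lib and 86.0 ± 16.8 in TAN libraries, and 42.9% of these UMIs were Mertk, a phagocytic receptor that endothelial cells also use. The complement gene C1qb was lower in TAN there, at 19.2 ± 2.1 against 11.5 ± 2.7 CPM (log2 change -0.76, edgeR, adjusted p = 0.0161), as was the macrophage chemokine Ccl24, at 5.29 against 1.94 CPM (log2 change -1.51, edgeR, adjusted p = 0.0177).

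In macrophages themselves the Retnla difference was small. The level was 9554, 8894, 10884 and 8998 CPM in the Ad-Lib libraries and 7517, 7426, 8564 and 9350.1 CPM in the TAN libraries. The 3 lowest were TAN libraries, with TAN 8 inside the Ad-Lib range. This gave a log2 change of -0.22 ± 0.09 (edgeR, adjusted p = 0.242), against a background of 54 genes called of 9914 tested, 0.545%, and none of the 5 members tested was called. At an unadjusted p under 0.05 there were 3 of the 5, beside 13.98% of all genes tested (1386 of 9914). After thinning each cell to 2000 UMIs, 66.4% of macrophages in Ad-Lib and 59.5% in TAN libraries had a Retnla UMI, as against 10.9% and 5.24% of T cells (exact permutation test for macrophages, p = 0.0571, adjusted p = 0.514), and without thinning the macrophage shares were 72.6% and 64.6%. Ccl24 was the 1 gene called of 8 tested, among 10 listed genes of resident and alternatively activated macrophages, falling from 581.2 ± 77.7 to 387.6 ± 44.4 CPM (log2 change -0.59, edgeR, adjusted p = 0.0124).

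Over all kept droplets of a library together Retnla stood at 1719, 1115, 1873 and 1468.5 CPM in the Ad-Lib libraries and at 914, 818, 604 and 1202 CPM in the TAN libraries. TAN 8 lay above Ad-Lib 3 and the other 3 TAN libraries lay below all Ad-Lib libraries. The means were 1544 ± 331 and 884.5 ± 248.3 CPM (exact permutation test, two-sided, p = 0.0571, adjusted p = 0.343 over the 8 genes). The share of macrophages among kept droplets moved with it, at 13.7 ± 2.7% in Ad-Lib and 7.85 ± 2.12% in TAN libraries (exact permutation test, p = 0.0571, and 0.0286 with Leiden clusters, stricter gates, the 20% mitochondrial limit or doublets removed), and fewer macrophages and less Retnla per macrophage both lower such a sum. Expressed as a percentage of this whole-library level, a scale chosen after seeing the data, Retnla stood at 1.99 ± 0.43% in Ad-Lib and 1.58 ± 0.38% in TAN Icam1+ progenitors and at 5.83 ± 4.28% and 3.58 ± 1.40% in endothelial cells (exact permutation test, p = 0.2 and 0.457). On this scale neither difference passed the test.

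**Figure D4:**
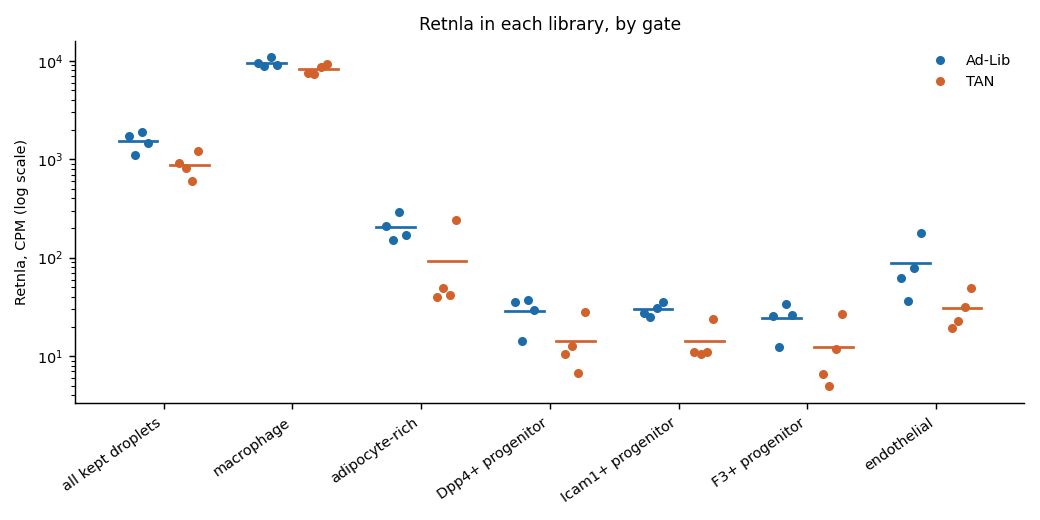
Retnla level in each library (CPM, logarithmic axis) over all kept droplets and in the 6 gates, with lines at group means of 4 libraries. TAN libraries other than TAN 8 lie below all Ad-Lib libraries over all kept droplets, and in macrophages the groups overlap.

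The other gates gave values of the same size without a call. In adipocyte-rich droplets Retnla stood at 208.8, 149.7, 289.4 and 169.9 CPM in Ad-Lib and at 39.4, 49.6, 42.0 and 241.5 CPM in TAN libraries, so TAN 8 alone lay inside the Ad-Lib range. There the log2 change was -1.06 ± 0.43 (edgeR, adjusted p = 0.186), and it was -2.24 and called without TAN 8. In Dpp4+ progenitors the change was -0.96 ± 0.31 (edgeR, adjusted p = 0.233) and in F3+ progenitors -0.94 ± 0.36 (edgeR, adjusted p = 0.331). The summed macrophage markers had log2 ratios of means, TAN over Ad-Lib, of -0.76 in adipocyte-rich droplets, -0.59 in Dpp4+ and -0.59 in F3+ progenitors and -0.35 in Icam1+ progenitors, where the groups overlapped and none passed the test (exact permutation test, p = 0.0857, 0.0571, 0.0857 and 0.257). The difference in change between Icam1+ progenitors and macrophages was -0.88 (exact permutation test, p = 0.0286, adjusted p = 0.309), and none of the 54 gate pairs tested for the 8 genes passed after adjustment.

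The ratio of Retnla to the 9 macrophage markers varied widely between libraries. These 9 markers also chose the macrophages, so the macrophage ratio depends on the rule and the tests against it are descriptions. Pooled over libraries Retnla gave 75.1% of marker UMIs in macrophages, 73.0% in adipocyte-rich droplets, 82.2% in Icam1+ and 81.1% in F3+ progenitors, 104% in Dpp4+ progenitors and 62.6% in endothelial cells, and none of these 5 gates passed the test against macrophages (exact sign-flip permutation test, adjusted p from 0.175 to 0.945). By library the endothelial ratio ran from 26.3% to 161.8% and was below that of macrophages in 7 of 8, and the Dpp4+ ratio was above it in 7 of 8. In endothelial cells without Mertk the value was 109.6%, above that of macrophages in 7 of 8 libraries (exact sign-flip permutation test, p = 0.0156, adjusted p = 0.109). In lymphocytes it was 172% (exact sign-flip permutation test, adjusted p = 0.125).

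Macrophages were of unequal Retnla level. Cluster 9, led by Fcna and Lyve1 and holding 1891 cells, had 12281 ± 1254 CPM in Ad-Lib and 11342 ± 1900 in TAN libraries, and cluster 8, led by Ccl12 and Lilra5 with 1392 cells, had 2585 ± 723 and 1819.7 ± 805.8. Cluster 9 stood above cluster 8 by 2.52 ± 0.50 on the log2 scale in 8 of 8 libraries, and cluster 8 stood above cluster 9 for Metrnl by 0.97 ± 0.29 (exact sign-flip permutation test, adjusted p = 0.00965 for each). Cluster 18, led by Pf4, whose 745 cells had a median of 1321 UMIs, had 5072 ± 995 CPM in Ad-Lib and 3574 ± 505 in TAN libraries, with every TAN library lower (exact permutation test, two-sided, p = 0.0286, the smallest 4 against 4 allows, unadjusted). This separation was picked out after the values were seen, and no share over all genes was computed for the clusters. Nampt did not differ between clusters 8 and 9 beyond its spread (exact sign-flip permutation test, adjusted p = 0.123).

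**Figure D5:**
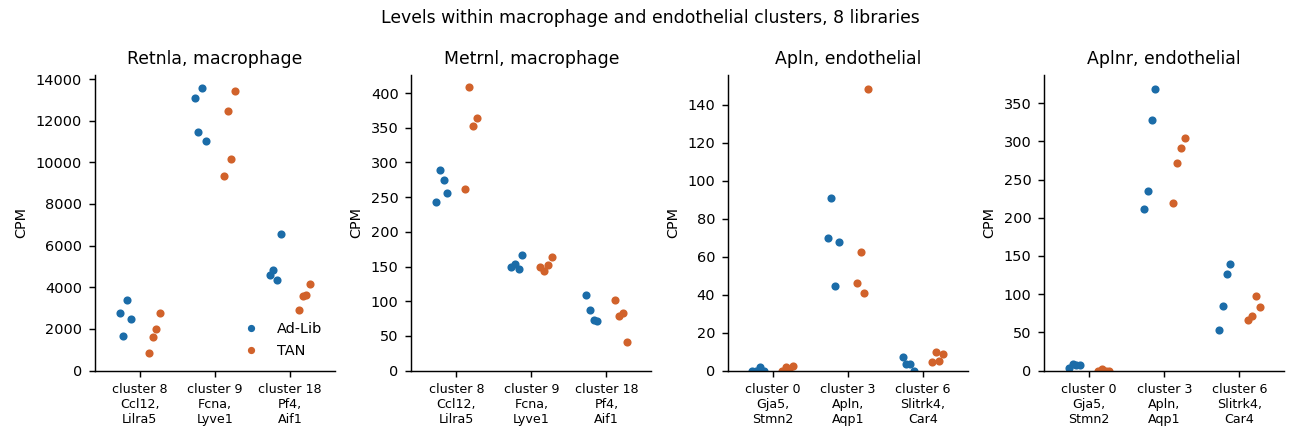
Levels (CPM, 1 point per library) of Retnla and Metrnl in 3 macrophage clusters and of Apln and its receptor gene Aplnr in 3 endothelial clusters, with the leading genes of each cluster under its number. Retnla is highest in cluster 9, Metrnl in cluster 8, and both Apln and Aplnr in cluster 3.

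Metrnl in Dpp4+ progenitors was 283, 278, 264 and 313 CPM in the Ad-Lib libraries and 342, 400.7, 292 and 355 CPM in the TAN libraries. The 3 highest values were TAN libraries, and Ad-Lib 7 lay above TAN 6. The log2 change was 0.29 ± 0.11 (edgeR, adjusted p = 0.305), and none of the 4 members tested in these cells was called against 44 of 10488 genes, 0.420%. At an unadjusted p under 0.05 there were 3 of the 4, beside 10.4% of all genes tested there (1086 of 10488). In macrophages Metrnl was 202, 223, 233 and 219 CPM in Ad-Lib and 227, 306, 232 and 289 CPM in TAN libraries, and its log2 change was 0.28 ± 0.11 (edgeR, adjusted p = 0.261). In the Schwann-marker droplets, which rested on 56 UMIs of Metrnl and were not among the gates fitted, it was 70.9 ± 33.8 CPM in Ad-Lib and 179.8 ± 47.1 in TAN libraries, with every TAN library higher (exact permutation test, two-sided, p = 0.0286, unadjusted). In droplets that met no marker rule Metrnl was 101.9 ± 11.9 CPM in Ad-Lib and 72.8 ± 22.4 in TAN libraries, with every TAN library lower (exact permutation test, p = 0.0286, unadjusted), and over all kept droplets it was 131.3 ± 16.7 and 102.7 ± 29.5 CPM (exact permutation test, p = 0.143). The Schwann-marker and unassigned values were picked out after all were seen, and no share over all genes was computed for either. Some separations of this kind arise by chance when many genes and groups of droplets are compared. In F3+ progenitors the means were both 111.1 CPM, with a log2 change of -0.06 ± 0.11 (edgeR, adjusted p = 0.913), and none of the 4 members tested there was called against 46 of 9861 genes, 0.466%, with 1, Retnla, at an unadjusted p under 0.05 beside 10.9% of all genes tested.

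Apelin in endothelial cells stood at 37.7, 49.2, 23.7 and 35.3 CPM in Ad-Lib and at 17.9, 30.5, 16.8 and 58.8 CPM in TAN libraries. Both the lowest and the highest were TAN libraries, and the log2 change was -0.27 ± 0.32 (edgeR, adjusted p = 0.733). Apln was concentrated: 70 of 6999 cells held 60.1% of its endothelial UMIs, and cluster 3 held 49 endothelial droplets with at least 5 UMIs, 24 from Ad-Lib and 25 from TAN libraries, beside 4 that met the rules of several lineages. In cluster 3 the Apln level was 68.2 ± 18.9 CPM in Ad-Lib and 74.5 ± 50.2 in TAN libraries, above cluster 6 by 3.67 ± 1.14 on the log2 scale in 8 of 8 libraries (exact sign-flip permutation test, adjusted p = 0.00965). Its receptor gene Aplnr was also higher in cluster 3 than in cluster 6, by 1.66 ± 0.24. Among 8 genes of tip-type endothelial cells fixed as a list, all tested, the basement membrane gene Nid2 was the 1 called (2.04% over all genes), lower in TAN from 18.6 ± 2.1 to 11.1 ± 3.3 CPM (log2 change -0.71, edgeR, adjusted p = 0.0407), and their median change was -0.26 beside -0.002 over all genes tested.

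Resistin in macrophages was the nearest of the uncalled values. It stood at 7.07, 4.70, 10.3 and 7.58 CPM in Ad-Lib and at 14.2, 20.6, 7.22 and 16.6 CPM in TAN libraries, and all TAN libraries but TAN 6 lay above the Ad-Lib range. Its log2 change was 1.04 ± 0.27 (edgeR, adjusted p = 0.0718), and it was called in 4 of 15 alternatives (DESeq2, no filter on low counts, and without Ad-Lib 5 or TAN 6). The adipocyte markers summed to 170.3 ± 23.6 CPM in Ad-Lib and 233.5 ± 71.9 in TAN macrophages, with overlapping groups and none of the 10 at 0 (exact permutation test, p = 0.143). Among them the triglyceride synthesis gene Dgat2 was called higher (3.62 to 10.5 CPM, log2 change 1.56, edgeR, adjusted p = 0.0113), 1 of 6 tested beside 0.545% of all genes. Their part in the resistin value was not tested. As a percentage of the level over all kept droplets Retn in macrophages stood at 20.6 ± 6.2% in Ad-Lib and 27.2 ± 11.0% in TAN libraries, a log2 ratio of 0.40 (exact permutation test, p = 0.343). In endothelial cells Retn changed by 0.51 ± 0.26, Adipoq by 0.23 ± 0.27 and Lep by 0.20 ± 0.20 (edgeR, adjusted p = 0.330, 0.720 and 0.668). All 10 adipocyte markers were tested in these cells, and 1 was called higher and 2 lower in TAN, beside 2.04% of all genes. Dgat2 rose from 23.4 ± 4.8 to 41.5 ± 8.1 CPM (log2 change 0.88). Pck1 fell from 34.6 ± 6.6 to 19.4 ± 3.4 CPM (-0.79) and Adrb3 from 7.51 ± 2.17 to 2.29 ± 1.15 CPM (-1.60).

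The receptors of these hormones were counted in cells of the fraction as well. Adipor1 was highest in endothelial cells, at 166.2 ± 11.5 CPM over 8 libraries, and Adipor2 in adipocyte-rich droplets, at 219.3 ± 34.4, with endothelial cells at 121.2 ± 31.8. Cdh13 stood at 262.0 ± 28.3 CPM in endothelial cells and 63.1 ± 15.1 in Dpp4+ progenitors, where it was the 1 gene called of the 6 receptors and partners tested (0.420% over all genes), from 75.9 ± 3.8 CPM in Ad-Lib to 50.3 ± 9.0 in TAN libraries (log2 change -0.62 ± 0.10, edgeR, adjusted p = 0.0106). Aplnr was endothelial, at 168.8 ± 37.9 CPM against 6.75 or less in the other 5 gates fitted. Leptin receptor transcripts were rare, with 103 UMIs in endothelial cells (3.18 ± 1.76 CPM) 25 in mural cells (6.00 ± 6.18 CPM, the highest mean) and 29 in F3+ progenitors, and Lepr was at 0 UMIs in adipocyte-rich droplets and macrophages. In endothelial cells 1 of 8 receptors and partners tested was called (2.04% over all genes), the receptor tyrosine kinase gene Kit, a proposed partner of the Metrnl protein, which fell from 34.0 ± 4.5 to 20.3 ± 6.6 CPM (log2 change -0.73, edgeR, adjusted p = 0.0389).

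Among 14 other secreted factors of fat, Rarres2, which encodes chemerin, was called in 2 gates. Its level over 8 libraries was 1636 ± 273 CPM in Icam1+, 1355 ± 174 in F3+ and 1090 ± 131 in Dpp4+ progenitors and 1278 ± 200 in mural cells, above the 279.3 ± 148.0 of adipocyte-rich droplets and the 30.1 ± 10.0 of endothelial cells. In adipocyte-rich droplets it fell from 413.9 ± 25.3 to 144.6 ± 46.2 CPM (log2 change -1.58 ± 0.22, edgeR, adjusted p = 0.000157), with every TAN library below every Ad-Lib library, and the other 4 of 5 tested were not called, where 4.39% of all genes tested were. In endothelial cells it fell from 38.7 ± 5.8 to 21.6 ± 2.5 CPM (log2 change -0.80 ± 0.14, edgeR, adjusted p = 0.00613), 1 of 11 tested beside 2.04% of all genes. In Icam1+ progenitors Rarres2 was higher in TAN, with a log2 change of 0.38 ± 0.09 (edgeR, adjusted p = 0.0254), under the limit of 1.5-fold and so not called, and the log2 changes in Dpp4+ and F3+ progenitors were 0.26 and 0.25 (edgeR, adjusted p = 0.166 and 0.372). Progenitors were 31.5 ± 6.2% of kept droplets in Ad-Lib and 18.6 ± 5.9% in TAN libraries (exact permutation test, p = 0.0571), and the part of progenitor transcripts in the 2 calls was not tested. Cebpd, a C/EBP transcription factor, was the 1 called of 7 regulators of adipocyte genes tested in adipocyte-rich droplets (4.39% over all genes), from 203.7 ± 66.6 to 74.9 ± 36.4 CPM (log2 change -1.56, edgeR, adjusted p = 0.00617). The median log2 change over the 5 adipokine genes tested there was -0.30, beside 0.01 over all genes tested.

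The genes most like each adipokine gene were taken by Pearson's r of log2(CPM + 1) over 64 points, 8 gates in 8 libraries, among 11160 genes. The points share libraries and depth, so r is a description. Adipoq was most like Retn (0.98), Cfd and Plin1, Lep most like Nrg4 (0.97), Lgals12 and Plin1, and Retn most like Cfd (0.99), Car3 and Adipoq. Retnla was most like Ccl6 (0.96), Mrc1 and C1qa, and Apln most like Flt4 (0.90), Ptprr and Has3. Metrnl was most like Emilin2 (0.92), Abca9 and Rab7b, Nampt like Crat (0.88), Csad and Ywhag, and Sfrp5, with the lowest r of the 8, like Matn2 (0.68), Cldn22 and Mpzl2.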

How the data were processed

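The libraries were made with the 10x Genomics 3' v3 kit. The deposited matrices hold raw UMI counts per gene and droplet, which the authors made with Cell Ranger against mm10, version 3.0.2 in the submitters' processing notes and 6.0.1 in the matrix headers. The annotation used for counting is not given in the sources used here.

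Droplets with 700 to 30000 UMIs, 200 to 8000 genes and at most 10% mitochondrial UMIs were kept and gated by the number of marker genes with a UMI: 4 of 10 (adipocyte-rich), 5 of 7 (progenitor, with 4 of 6 Dpp4+, 4 of 6 Icam1+ or 3 of 6 F3+ markers), 5 of 9 (macrophage) and 6 of 10 (endothelial). Droplets meeting the rules of several lineages were left out, and doublets were removed only in an alternative. Counts were summed per library and gate and tested with edgeR 4.0.16 (quasi-likelihood, TMM, filterByExpr) over all genes of a gate, with Benjamini-Hochberg adjustment; DESeq2 1.42.0 was an alternative. The edgeR fit was tested on simulated data in the endothelial and adipocyte-rich gates, and DESeq2 was not. Exact permutation tests used all 70 assignments of 4 against 4 libraries, with a smallest p of 0.0286, and sign-flip tests all 256 flips. Clusters came from scanpy 1.11.5 (Leiden, resolution 1) without the 8 genes.

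The 8 genes, lists and markers were chosen with earlier results of these data known. The text names all 8 genes, for each the 3 genes most alike, and the genes called from the lists, up to 3 a gate and list. Values carry counting error beside the spread between libraries. Promoters came from the RefSeq table, where all 8 genes matched.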

Additional observations from a re-analysis of the deposited data

Results flagged for a closer look

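Within groups of 4 libraries a library stood apart from the other 3 in 6 of 72 combinations of gene, gate and feeding group, with a gap to the nearest of them, as a share of the range, above Dixon's critical value for 4 values. About 1 in 20 groups is marked in this way by chance. Retnla was marked in TAN 8 in 2 gates, at 241.5 CPM in adipocyte-rich droplets, where the other TAN libraries had 39.4 to 49.6 CPM, and at 23.65 CPM in Icam1+ progenitors, where they had 10.5 to 11.1 CPM. TAN 8 also had the highest Retnla level and the highest share of macrophages of the TAN libraries. Sfrp5 was at 126.7 CPM in the F3+ progenitors of TAN 4, with 103 UMIs, against 0 to 1.21 in the other TAN libraries. Metrnl was at 7.65 CPM in the endothelial cells of Ad-Lib 7 against 4.56 to 5.02. Apln was at 2.469 CPM in the Dpp4+ progenitors of Ad-Lib 5, from 9 UMIs, against 0.272 to 0.645. Retn was at 1.222 CPM in the Dpp4+ progenitors of TAN 6, from 2 UMIs, against 4.15 to 4.72. The causes were not tested.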

How the results depend on the processing

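Of the log2 changes of members under an alternative, 406 kept their direction and their side of an adjusted p of 0.05, 9 passed it anew (1 of them, Nampt in Icam1+ progenitors, below 1.5-fold), 5 no longer passed it and 9 changed sign. Retnla in Icam1+ progenitors was called in the 15 alternative fits (log2 change -1.46 to -0.97), but without its 4 richest droplets, an alternative added after seeing the data, the log2 ratio of means was -0.83 and the groups overlapped. In endothelial cells DESeq2 gave -1.499 for Retnla (adjusted p = 0.0806), so 0 adipokine genes were called there, and without 1 library the value ranged from -1.811 (without TAN 8) to -0.9851 (without Ad-Lib 7). With no filter on low counts 1 adipokine gene was called in adipocyte-rich droplets, 1 in Dpp4+ and 1 in F3+ progenitors (Retnla in each) and 2 in macrophages, and DESeq2 called 1 in macrophages. Leaving out a library in turn called 0 to 1 adipokine genes in adipocyte-rich droplets, 0 to 1 in macrophages and 0 to 1 in endothelial cells.

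Counts of all genes called moved more. With no filter they were 170 in adipocyte-rich droplets, 138 in Dpp4+, 337 in Icam1+ and 198 in F3+ progenitors, 204 in macrophages and 354 in endothelial cells. With Leiden clusters they were 175 in adipocyte-rich droplets and 72 in Dpp4+ progenitors, with stricter gates 23 in Dpp4+ and 15 in F3+ progenitors, and with a mitochondrial limit of 20% 173 in adipocyte-rich droplets. Without 1 library they ranged from 3 to 90 in Dpp4+, 114 to 195 in Icam1+ and 12 to 55 in F3+ progenitors, 32 to 80 in macrophages and 133 to 254 in endothelial cells, with the lowest count of each of these 5 gates without TAN 2 and the 90 without TAN 6. The causes were not tested.

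The log2 changes that changed sign were uncalled, and some moved widely: Metrnl in F3+ progenitors with stricter gates (0.084), Retn in Icam1+ progenitors (-1.086 to 0.01528 without 1 library, above 0 without Ad-Lib 5), Adipoq in endothelial cells (-0.0711 without TAN 4, at most 0.4152) and Sfrp5 in F3+ progenitors (-5.617 without TAN 4 to 0.5099 without TAN 2). Against the B cell gate alone 3 levels passed the test below lymphocytes in place of 9, those of Retnla in the progenitor subsets, and Metrnl in endothelial cells stood at 0.6521, which did not pass. With Lipe, Pnpla2 and Mertk left out of the marker lists, an alternative added after seeing the data, 5 ratios differed from those of the source gate, and the log2 ratio changed sign for Lep in Dpp4+ progenitors (0.368), macrophages (0.1506) and lymphocytes (0.309), for Adipoq (0.09641) and Retn (0.1393) in lymphocytes and for Retnla in endothelial cells (0.3555). The share of adipocyte-rich droplets, TAN minus Ad-Lib, became 0.2119 percentage points with Leiden clusters and 0.2729 with the 20% limit.

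No paired analysis was possible because the replicate numbers of the labels are not shared between the feeding groups. Low counts limited several genes outside their home: Lep rested on 7 to 42 UMIs in the progenitor subsets and macrophages, and Apln and Sfrp5 on 10 or fewer in adipocyte-rich droplets. Shares and levels in shallow adipocyte-rich droplets rest on 56 to 175 droplets a library.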

Other observations

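Of 8 relatives of the adipokine genes (Retnlb, Retnlg, Sfrp1, Sfrp2, Sfrp4, Frzb, Metrn and Apela) none was called by edgeR in any of the 6 gates, where 0 to 4 of them passed the filter on low counts. Over all genes tested the share called was 0.420 to 4.39% by gate. At an unadjusted p under 0.05 there was 1 in Dpp4+ and 1 in F3+ progenitors, beside 10.4% and 10.9% of all genes tested. Of the 14 other secreted factors of fat, 10 were tested in Icam1+ progenitors and 10 in F3+ progenitors. None was called in either by edgeR, where 1.69% and 0.466% of all genes tested were. An unadjusted p under 0.05 was found for 7 and 6, beside 1660 of 10679 and 1076 of 9861 genes tested in all. Their median log2 change was -0.33 in Icam1+ and -0.14 in F3+ progenitors.

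Of 10 genes of resident and alternatively activated macrophages 8 were tested in the macrophage gate, 1 was called, beside 0.545% of all genes, and the median log2 change was -0.04. The 9 macrophage markers themselves had a median of -0.06 there and of -0.59 in endothelial cells, where 7 were tested and 1 was called, beside 2.04% of all genes.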
